A study of Mus musculus with 8 samples.

Results

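The acid-base genes of the intercalated cell were examined in RNA sequencing data from mouse kidney tubuloids. The 10 genes were chosen by symbol from knowledge of this cell type, out of 24063 genes in the count tables, and all 10 were found. They were Foxi1, the proton pump subunits Atp6v1b1, Atp6v1g3, Atp6v0a4 and Atp6v0d2, the bicarbonate exchangers Slc4a1, Slc4a9 and Slc26a4, the carbonic anhydrase Car2 and the ammonia channel Rhcg. Most of them were barely expressed: 8 of the 10 genes had a mean level under 1 TPM, a measure of transcript abundance per length scaled to a fixed sum in each library, and Car2 alone was counted in all 8 libraries. None passed the tests between the treatment groups, and for each gene the larger of the SDs of TPM within the groups exceeded the difference between the group means.

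Intercalated cells lie among the principal cells of the connecting tubule and collecting duct and set the acidity of urine. Acid-secreting (type A) cells pump protons into the lumen through a vacuolar proton pump and return bicarbonate to the blood through the exchanger encoded by Slc4a1. Bicarbonate-secreting (type B) cells use pendrin, encoded by Slc26a4, at the lumen and Slc4a9 on the blood side. Foxi1 is a forkhead transcription factor required for intercalated cells to form, and carbonic anhydrase supplies the protons and bicarbonate that both cell types move.

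Tubuloids are structures grown in Matrigel with growth factors from tubule fragments of postnatal kidneys, here from day 7 to day 10 pups by the sample descriptions and somewhat younger ones by the study's methods. By the study's protocol the cultures began with a pulse of GDNF, glial-derived neurotrophic factor. The study used this pulse with the aim of a collecting-duct-like state. All 8 libraries came from Pkd2fl/fl Pax8rtTA TetOCre mTmG mice. The DOX group (n = 4 libraries, numbered 9, 21, 19 and 12) received doxycycline, which switches on Cre to inactivate Pkd2, the gene for polycystin-2, and the DMSO group (n = 4 libraries, numbered 15, 20, 3 and 5) received the vehicle dimethyl sulfoxide. Agent or vehicle was added from day 3 of culture for 3 days, with RNA taken on day 7. The DMSO libraries thus carried the same floxed alleles, transactivator, Cre transgene and red-to-green membrane reporter as the DOX libraries. Cre was limited to cells with an active Pax8 promoter, a renal epithelial promoter, and by the study's account some epithelial cells in treated cultures kept the red, unrecombined reporter. The comparison asked which transcripts changed after Cre was induced. By the study's account each group held 4 cultures. Nothing in the sources used here ties a library to an animal, so p-values measure only the spread between these libraries.

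The total was 63922677 to 102716313 counts per library. DMSO 20 and DOX 19 stood apart, with counts for 13243 and 13599 genes against 17054 to 17903 in the other 6 libraries, and the main comparisons are given below with and without them. Pkd2, the targeted gene, had 4813 to 7538 normalized counts in DMSO and 4136 to 5952 in DOX libraries, which overlapped (log2 fold change -0.31, SE 0.215, DESeq2 adjusted p = 0.999). The study reported less polycystin-2 protein in doxycycline-treated tubuloids by western blot, and these RNA counts do not measure protein. Renal epithelial genes (Pax8, Cdh1, Epcam, Krt8 and Krt18) were all counted in all 8 libraries. In bulk RNA, fewer cells of a type and less RNA per cell cannot be told apart.

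Promoter sequences were looked up because Foxi1 is a forkhead factor, a family known to bind sites built around TGTTTAC, and because several of the genes were counted in the same few libraries. The RefSeq promoter sequences used here covered 6 of the 10 genes (Atp6v1g3, Atp6v0a4, Atp6v1b1, Rhcg, Foxi1 and Slc26a4). The 250 bases before the start set by each promoter entry were read on build GRCm38.p6, the assembly also called mm10. For Slc26a4 this window, chr12:31559985-31560234, overlaps the gene's own span, chr12:31519814-31560055, so it is not wholly upstream of the gene. TGTTTAC on either strand was found in 1 of the 6 windows, that of Atp6v1b1, and in 3.65% of 32851 promoters, whose whole entries were searched. The looser TGTTTNC, which includes the stricter spelling, was found in 4 of 6 (Atp6v1g3, Atp6v1b1, Foxi1 and Slc26a4) and in 20.5% of all promoters, again over whole entries. These spellings were picked among several after matches had been seen, and a match is a description of letters, not a binding site. The windows of Foxi1 and of 2 pump subunits that were counted only in libraries where Foxi1 was counted are shown, each wholly upstream of the start, 5′ to 3′ on the gene's strand, with the matching letters in capitals. They lie at chr11:34208090-34208339 (minus strand, Foxi1), chr6:83742767-83743016 (plus strand, Atp6v1b1) and chr1:138273488-138273737 (plus strand, Atp6v1g3). In Foxi1 the match is on the opposite strand and reads GAAAACA. Counted from the start, the matches begin at -217, -98 and -136 in Foxi1, Atp6v1b1 and Atp6v1g3.
Foxi1: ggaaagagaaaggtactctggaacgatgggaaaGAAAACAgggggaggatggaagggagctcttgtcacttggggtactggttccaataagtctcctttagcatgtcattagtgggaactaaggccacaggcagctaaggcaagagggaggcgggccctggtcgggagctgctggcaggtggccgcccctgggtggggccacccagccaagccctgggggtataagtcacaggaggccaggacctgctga
Atp6v1b1: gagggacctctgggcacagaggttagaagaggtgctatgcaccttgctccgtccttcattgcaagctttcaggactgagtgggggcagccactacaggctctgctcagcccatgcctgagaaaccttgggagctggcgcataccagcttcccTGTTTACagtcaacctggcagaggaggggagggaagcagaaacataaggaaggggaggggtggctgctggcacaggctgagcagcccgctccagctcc
Atp6v1g3: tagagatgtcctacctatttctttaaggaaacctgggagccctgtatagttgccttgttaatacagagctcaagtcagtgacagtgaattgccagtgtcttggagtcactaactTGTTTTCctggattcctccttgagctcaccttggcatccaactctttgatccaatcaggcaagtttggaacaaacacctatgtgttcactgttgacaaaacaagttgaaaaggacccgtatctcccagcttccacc

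Foxi1, the transcription factor of the group, lies at chr11:34204341-34208089 on the minus strand. It was at 0, 0, 0.673 and 1.19 TPM in DMSO libraries 15, 20, 3 and 5, and at 0.0345, 0, 0 and 0.419 TPM in DOX libraries 9, 21, 19 and 12. DMSO 3, DMSO 5 and DOX 12 carried nearly all of its reads (80, 103 and 48 counts), and the groups overlapped. A count of 0 allowed up to 0.0269 to 0.0418 TPM in the 4 libraries without a read, a limit that covers counting error only and rests on 3 counts. The DOX to DMSO log2 fold change was -2.24 with an SE of 2.74 (DESeq2 adjusted p = 0.999), and mean normalized counts were 44.6 ± 52.8 in DMSO against 9.38 ± 16.6 in DOX (SD over 4 libraries; p = 0.429 by a two-sided exact permutation test). DOX 12 was also the library of its group with the highest level of Atp6v1b1, Atp6v1g3, Slc4a9, Slc26a4 and Rhcg.

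The proton pump is built from many subunits, several of which exist as a widely expressed gene and a kidney-enriched paralog. Of the 4 kidney-enriched subunits, the cytosolic-head gene Atp6v1b1 (chr6:83743017-83758855) is the B subunit of acid-secreting kidney and inner ear cells, where its loss causes distal renal tubular acidosis. Its level was 0, 0, 0.154 and 0.847 TPM in DMSO 15, 20, 3 and 5 and 0.0106, 0, 0 and 0.470 TPM in DOX 9, 21, 19 and 12. The 4 libraries in which Foxi1 was counted also had Atp6v1b1 reads, with 15 counts in DMSO 3, 60 in DMSO 5, 44 in DOX 12 and 1 in DOX 9. DOX against DMSO gave a log2 fold change of -1.21 with an SE of 2.96 (DESeq2 adjusted p = 0.999). Its ubiquitous counterpart Atp6v1b2 stood at 41.6 to 106 TPM, at least 67.9 times the level of Atp6v1b1 in every library where Atp6v1b1 was counted. Atp6v1b1 made up 1.45% of the B subunit TPM in DMSO 5, its highest share (95% exact binomial interval of the counts, scaled by length, 1.11% to 1.86%, for counting error only), and 0.489% in DOX 12. In the 4 libraries with no Atp6v1b1 read, the limit from 3 counts was 0.0552% to 0.123%.

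Atp6v1g3, the kidney-enriched G subunit of the pump's stalk (chr1:138273738-138289462), was counted in DMSO 5 at 0.764 TPM and in DOX 12 at 0.0872 TPM, from 53 and 8 counts. It was at 0 in the other 6 libraries, including DMSO 3, where Foxi1 and Atp6v1b1 were counted. The estimated log2 fold change was -3.21 with an SE of 3.28, and DESeq2 gave no p under its Cook's distance filter on outlying counts. The ubiquitous Atp6v1g1 was at 268 to 376 TPM and the neuronal paralog Atp6v1g2 at 1.65 to 12.4 TPM, both above Atp6v1g3 in 8 of 8 libraries. The share of Atp6v1g3 in the G subunit TPM reached 0.227% in DMSO 5.

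The membrane-domain subunit Atp6v0d2 (chr4:19876838-19922566), the d2 subunit of kidney and osteoclasts, was the most expressed pump gene of the 10. Its level was 2.86, 0, 9.79 and 6.04 TPM in DMSO 15, 20, 3 and 5 and 4.52, 6.59, 1.02 and 6.97 TPM in DOX 9, 21, 19 and 12. The lowest values lay in DMSO 20 and DOX 19, the libraries with few genes detected, and the groups overlapped over most of their range. The means of 4.67 ± 4.21 and 4.77 ± 2.72 TPM in DMSO and DOX (SD, n = 4 each) differed by less than the spread, with a log2 fold change in counts of -0.13 (SE 1.29, DESeq2 adjusted p = 0.999, edgeR adjusted p = 0.999). Atp6v0d1, the general d subunit, was at 36.5 to 86.9 TPM and thus at least 5.55 times higher. The share of Atp6v0d2 in the d subunit TPM ran from 0 in DMSO 20 to 15.3% in DMSO 3 and from 1.64% in DOX 19 to 7.49% in DOX 21.

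Atp6v0d2 is also a gene of osteoclasts and macrophages, so their markers were read beside it. The osteoclast-type genes (Ctsk, Acp5, Calcr, Dcstamp and Ocstamp) summed to 13.9 to 25.7 TPM in DMSO and 26.6 to 40.4 TPM in DOX libraries. Dcstamp, needed for osteoclast fusion, was at 0 in all 8 libraries, whereas Ctsk, also a fibroblast protease, supplied 11.5 to 37.6 TPM. The 7 macrophage genes found in the tables summed to 35.0 to 74.8 TPM in DMSO and 8.67 to 44.9 TPM in DOX libraries, and C1qa and C1qb were counted in DMSO 15 alone. By mean TPM over all libraries the largest part of these sums was Cd14 (25.2), before Cd68 (7.01) and Ptprc (5.38). Csf1r was at most 0.431 TPM. The part of either cell type in the Atp6v0d2 level was not tested.

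Atp6v0a4 (chr6:38048483-38124586), the kidney a4 subunit that forms part of the proton path, was at 0.0515, 0, 0.844 and 1.83 TPM in DMSO 15, 20, 3 and 5. In DOX 9, 21, 19 and 12 it was at 0.520, 0.215, 0.257 and 1.60 TPM. DMSO 5 and DOX 12 were again the highest of their groups, and reads were found in 7 of 8 libraries, from 8 to 256 counts. Its log2 fold change was -0.18 with an SE of 1.43 (DESeq2 adjusted p = 0.999). Atp6v0a1, Atp6v0a2 and Tcirg1, the 3 other a subunits, were each at least 12.0 times higher. Atp6v0a4 made up at most 0.833% of the a subunit TPM, its own included, in DOX 12. Its exons share bases with Tmem213 and D630045J12Rik, and the strand setting of the counting was not given in the sources used here, so some reads may belong to those genes. Tmem213 was at 22.6 and 26.0 TPM in DMSO 3 and DMSO 5, at 17.9, 9.75 and 32.1 TPM in DOX 9, DOX 21 and DOX 12, and at 0 in the other 3 libraries.

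**Figure D1:**
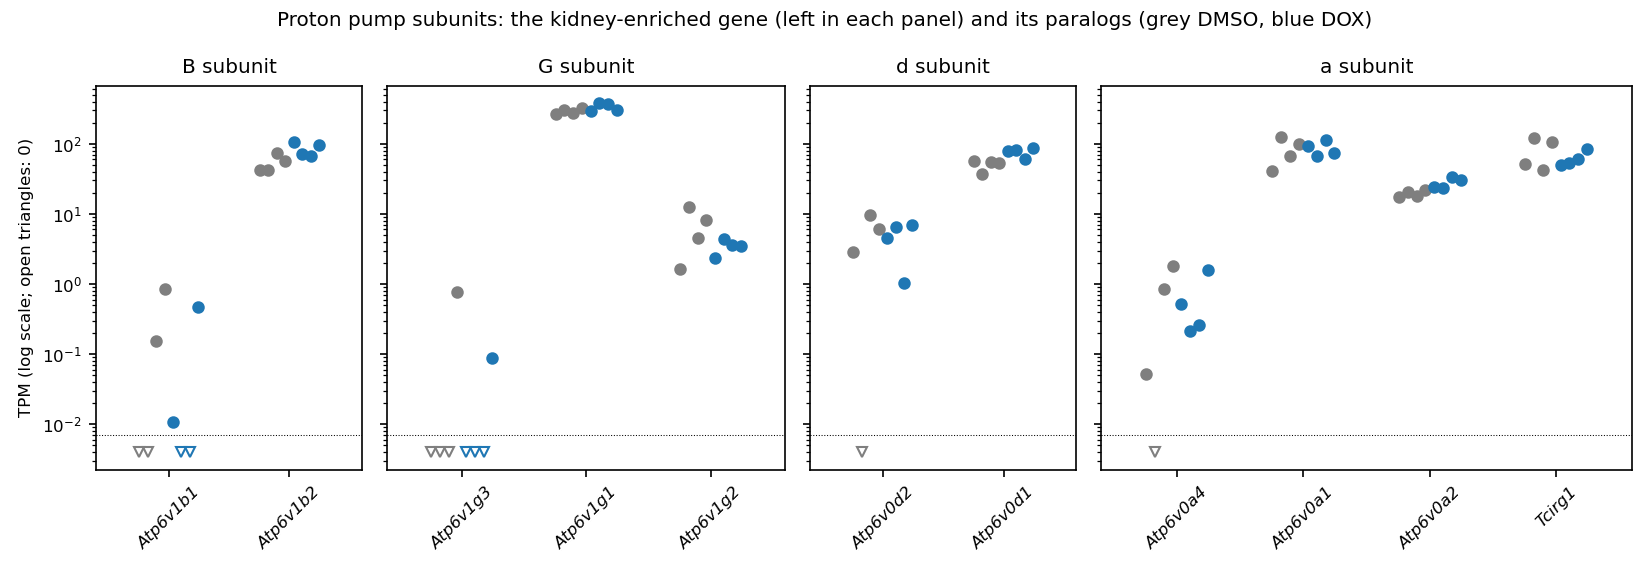
Level of each kidney-enriched proton pump subunit (leftmost gene of a panel) and its paralogs in TPM on a log axis; each point is 1 library, grey DMSO and blue DOX, and open triangles below the dotted line are libraries at 0. The paralogs lie above the kidney-enriched gene in 8 of 8 libraries in every panel.

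The share of the kidney-enriched gene in each subunit's TPM was compared between the groups by exact two-sided permutation tests, for which 70 assignments of the libraries allow a smallest p of 0.02857. Means in DMSO and DOX (SD, n = 4 each) were 0.415 ± 0.697% and 0.125 ± 0.243% for the B subunit (exact permutation p = 0.714). They were 0.0567 ± 0.113% and 0.00712 ± 0.0142% for the G subunit (exact permutation p = 1.0). For the d subunit they were 7.55 ± 6.62% and 5.50 ± 2.74% (exact permutation p = 0.600), and for the a subunit 0.376 ± 0.411% and 0.355 ± 0.330% (exact permutation p = 1.0). All 4 p-values were 1.0 after Benjamini-Hochberg adjustment over the 4 subunits, so no difference in share passed the test. Without DMSO 20 and DOX 19 the differences in share (DOX minus DMSO) were -0.386, -0.0661, -3.28 and -0.0687 percentage points, with exact permutation p of 0.5 to 1.0 in a design of 3 against 3 libraries that cannot go below 0.1.

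Of the exchangers, Slc4a1 (chr11:102348820-102365281), the anion exchanger of type A cells and also of red blood cells, was counted in DOX 19 alone, with 17 counts and 0.0985 TPM. In the other 7 libraries a count of 0 allowed up to 0.0131 to 0.0216 TPM. DOX 19 was also the library with the highest sum over the 7 red blood cell genes found in the tables, 16.2 TPM against 0.574 to 1.71 TPM elsewhere, with Hbb-bs, a beta globin gene, at 8.0 TPM. Foxi1, Atp6v1b1 and Rhcg were at 0 in DOX 19, and the part of red blood cells in its Slc4a1 reads was not tested. The fitted log2 fold change of 4.63 (SE 3.4) was set against a group at 0 and is not a bound, and no adjusted p was given.

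Slc4a9, the blood-side exchanger of type B cells, is listed under 5 transcripts whose reads appear to have been counted once for each, so its summed values overstate its reads. Summed over these, it was at 0, 0, 0.637 and 3.62 TPM in DMSO 15, 20, 3 and 5 and at 0, 0.0329, 0 and 0.406 TPM in DOX 9, 21, 19 and 12. The most counted transcript alone had 20 and 82 counts in DMSO 3 and DMSO 5 (0.125 and 0.706 TPM), 1 count in DOX 21 and 12 counts in DOX 12 (0.0781 TPM). On either reading DMSO 3, DMSO 5 and DOX 12 held nearly all of its counts and the groups overlapped. The log2 fold change of the summed counts was -3.41 with an SE of 2.69 (DESeq2 adjusted p = 0.999).

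Slc26a4 (chr12:31519814-31560055), which encodes pendrin, was at 0, 0, 0.0257 and 0.124 TPM in DMSO 15, 20, 3 and 5 and at 0.0198, 0, 0 and 0.0801 TPM in DOX 9, 21, 19 and 12. These values stand for 4, 14, 3 and 12 counts in DMSO 3, DMSO 5, DOX 9 and DOX 12, so only DMSO 5 and DOX 12 were clearly above the level of a few reads. The log2 fold change was -0.68 with an SE of 3.0, and DESeq2 gave no adjusted p at this low count.

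Rhcg (chr7:79593363-79617657), the ammonia channel of the distal tubule and collecting duct, was at 0, 0, 0.152 and 1.77 TPM in DMSO 15, 20, 3 and 5. It was at 0.0195, 0, 0 and 1.39 TPM in DOX 9, 21, 19 and 12. A single library of each group thus held most of its reads, 136 counts in DMSO 5 and 141 in DOX 12. Its log2 fold change was -0.57 with an SE of 2.94, with no p because of the Cook's distance filter.

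**Figure D2:**
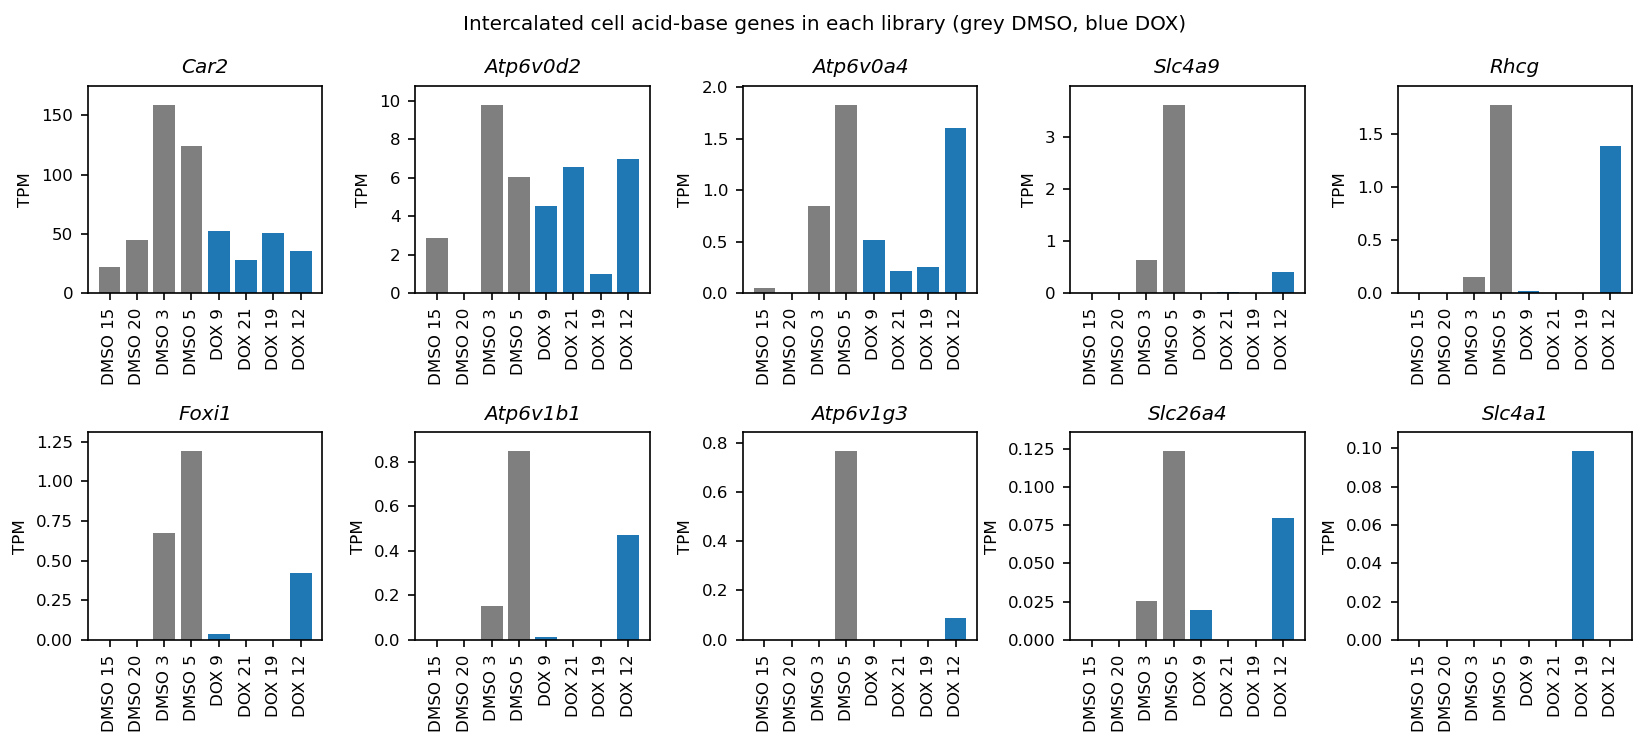
Level of each of the 10 genes in TPM in each library (grey DMSO, blue DOX; each panel has its own axis, and Slc4a9 is the sum of 5 transcripts). Foxi1, Atp6v1b1, Slc4a9, Slc26a4 and Rhcg were highest in DMSO 5 and DOX 12 of their groups, while Car2 was highest in DMSO 3, at 159 TPM, and Slc4a1 was counted in DOX 19 alone.

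Car2 (chr3:14886269-14900770), cytosolic carbonic anhydrase, was the exception in level, with 11.6% of all genes having a higher mean TPM. It was at 21.9, 45.2, 159 and 124 TPM in DMSO 15, 20, 3 and 5 and at 52.6, 28.5, 50.7 and 35.9 TPM in DOX 9, 21, 19 and 12. DMSO 3 and DMSO 5 stood above the other 6 libraries, and DMSO 15 stood below all DOX libraries, so the groups overlapped and the span from lowest to highest was 7.26-fold. Means were 87.5 ± 64.6 TPM in DMSO and 41.9 ± 11.6 TPM in DOX (SD, n = 4 each). The log2 fold change in counts was -1.13 with an SE of 0.612 (p = 0.0648 and adjusted p = 0.920 by DESeq2; adjusted p = 0.999 by edgeR), and the exact two-sided permutation p of the normalized counts was 0.343. Leaving out DMSO 20 and DOX 19 gave -1.47 with a DESeq2 adjusted p of 0.570, and leaving out DMSO 3 gave -0.54, so this library had the largest part in the estimate.

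Car2 is not limited to intercalated cells, so the epithelial genes were read beside it. Epcam was at 390 and 373 TPM in DMSO 3 and DMSO 5 against 46.6 to 258 TPM in the other 6, whereas Pax8 was highest in DOX 12, at 117 TPM, and lower in DMSO 3 than in DMSO 5, DMSO 20 and DOX 19. The 5 epithelial genes summed to 436, 845, 1760 and 1400 TPM in DMSO 15, 20, 3 and 5 and to 1170, 532, 895 and 803 TPM in DOX 9, 21, 19 and 12. Whether the epithelial content of a library played a part in its Car2 level was not tested.

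By mean TPM the order was Car2 (64.7), Atp6v0d2 (4.72), Atp6v0a4 (0.665), Slc4a9 (0.587), Rhcg (0.416), Foxi1 (0.290), Atp6v1b1 (0.185), Atp6v1g3 (0.106), Slc26a4 (0.0311) and Slc4a1 (0.0123). Car2 exceeded Atp6v0d2 in 8 of 8 libraries, and Atp6v0d2 exceeded Atp6v0a4 in 7 with both at 0 in the remaining library. Further down, Slc4a9 exceeded Rhcg in 3 libraries and lay below it in 2, and Rhcg and Foxi1 exceeded each other in 2 libraries each. With the most counted transcript in place of the sum, Slc4a9 had a mean of 0.115 TPM and moved from place 4 to place 7.

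Taking the 10 genes as a group, 0 of them were called at a DESeq2 adjusted p of at most 0.05 and at least 1.5-fold, against a background of 25 of 15555 genes (0.161%). DESeq2 gave 6 of the 10 an adjusted p, and of the 8 with a p 0 had an unadjusted p under 0.05, where 4.67% of 19268 genes did. Under edgeR 3 of the 10 passed the filter on low counts (Car2, Atp6v0d2 and Atp6v0a4) and 0 were called, as were 0 of 15562 genes (0.0%), while 3.06% of genes had an unadjusted p under 0.05 and 0 of these 3 did. For 0 of the 10 genes did all libraries of one group lie above all of the other, which occurred in 2.71% of 17633 genes. These counts do not set the genes apart from the background. Of the 10 log2 fold changes 9 were negative and 1 positive, with a median of -0.90 against -0.08 over all genes. Leaving out DMSO 5 alone turned the median to 0.79, and leaving out DMSO 20 and DOX 19 gave -1.19 over 9 genes with 0 called and 1 of them at an unadjusted p under 0.05. Over all genes 51 were called in the fit without DMSO 20 and DOX 19. The share of all genes at such an unadjusted p was not computed for it. Without DMSO 20 and DOX 19 the log2 fold changes were -2.23 (Foxi1), -1.19 (Atp6v1b1), -3.19 (Atp6v1g3), -0.20 (Atp6v0d2), -0.32 (Atp6v0a4), -3.39 (Slc4a9), -0.65 (Slc26a4) and -0.55 (Rhcg), with DESeq2 adjusted p of 0.914 to 0.985, and Slc4a1 had no count left. No direction can be read from these estimates, whose SEs were 2.69 or more for the 7 least expressed genes.

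**Figure D3:**
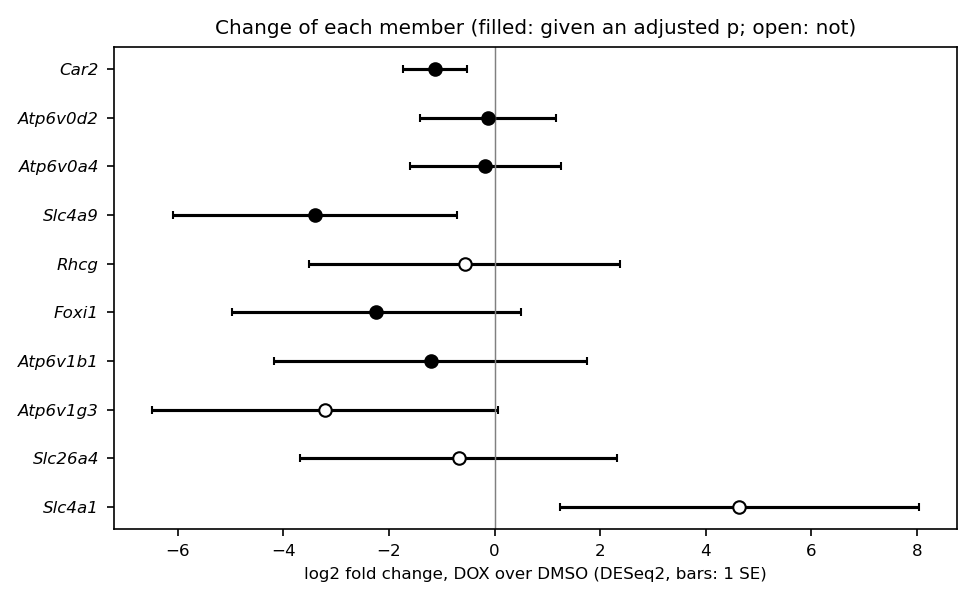
DESeq2 log2 fold change, DOX over DMSO, of each gene with bars of 1 SE; filled points were given an adjusted p and open points were not. Car2 has the smallest SE, 0.612, and none of the 10 genes was called.

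The genes were instead counted by library. DMSO 3, DMSO 5 and DOX 12 had counts for 8, 9 and 9 of the 10 genes, and 8 genes were counted in all 3 of them. DMSO 15, DMSO 20, DOX 21 and DOX 19 had counts for 3, 1, 4 and 4 genes. DOX 9 had counts for 7, of which 4 rested on more than 3 counts. Over all genes, DMSO 15, DMSO 20, DOX 21 and DOX 19 had counts for 17054, 13243, 17342 and 13599. DMSO 3, DMSO 5, DOX 12 and DOX 9 had counts for 17875, 17607, 17735 and 17903. The part of gene detection as a whole in the pattern of the 10 genes was not tested. The 8 genes other than Car2 and Atp6v0d2 summed to 0.0515, 0, 2.48 and 10.1 TPM in DMSO 15, 20, 3 and 5 and to 0.604, 0.248, 0.355 and 4.45 TPM in DOX 9, 21, 19 and 12. With 1 transcript for each gene the sums in DMSO 3, DMSO 5 and DOX 12 were 1.97, 7.23 and 4.13 TPM, the same 3 libraries being highest.

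These 3 libraries were also the highest for principal cell genes. The 7 genes (Aqp2, Aqp3, Avpr2, Scnn1b, Scnn1g, Fxyd4 and Hsd11b2) summed to 6.61, 11.5, 119 and 456 TPM in DMSO 15, 20, 3 and 5 and to 43.1, 28.5, 12.8 and 103 TPM in DOX 9, 21, 19 and 12. Most of that signal came from Fxyd4, a regulator of the sodium pump, at 306 TPM in DMSO 5, and Scnn1b, an epithelial sodium channel subunit, at 85.3 TPM there. Aqp2, the water channel that defines mature principal cells, had 2 counts in DOX 9 and none elsewhere. Its part in the pattern of the intercalated cell genes was not tested.

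**Figure D4:**
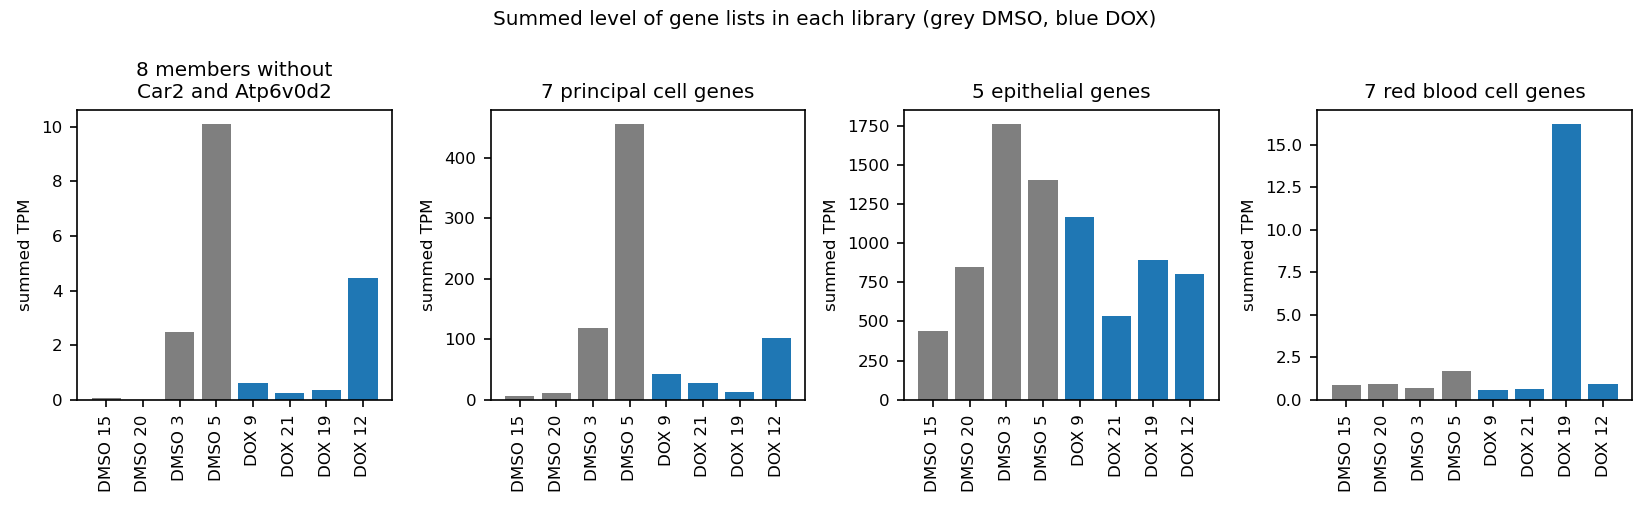
Summed TPM in each library (grey DMSO, blue DOX) of the 8 genes other than Car2 and Atp6v0d2, 7 principal cell genes, 5 epithelial genes and 7 red blood cell genes; each panel has its own axis. The first 2 panels are highest in DMSO 5, at 10.1 and 456 TPM, and the red blood cell genes are highest in DOX 19, at 16.2 TPM.

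Further genes known from intercalated cells were read as a check of the cell type. Of 10 such genes, Hmx2, a transcription factor, was at 0 in all libraries, and Insrr, a receptor that senses alkaline pH, was counted in DMSO 5 alone (19 counts). Aqp6, an intracellular channel of type A cells, had 7 counts in DMSO 5 and 2 in DOX 9, and Dmrt2, Hepacam2 and Oxgr1 reached at most 0.217, 0.219 and 0.0849 TPM. Kit (0 to 10.4 TPM), Kcnma1 (0.0499 to 92.5 TPM), Tfcp2l1 (0.656 to 16.1 TPM) and Slc26a7 (1.27 to 9.19 TPM) were more abundant, and all 4 are also made by other cell types. DESeq2 called 0 of the 4 that were given an adjusted p, beside 0.161% of all genes tested, and 1 log2 fold change was positive and 8 negative with a median of -1.32. They did not share 1 pattern over the libraries. Tfcp2l1 was highest in DMSO 5, DOX 12 and DMSO 3, at 16.1, 5.30 and 4.11 TPM, Kcnma1 in DOX 12 and DMSO 5, at 92.5 and 71.3 TPM, and Hepacam2 in DMSO 5 and DMSO 3. Slc26a7 was at 9.19 TPM in DOX 12 and 8.93 TPM in DOX 21, against 4.05 TPM or less in the other 6 libraries. Dmrt2 had 24 counts in DMSO 15, 15 in DMSO 5, 13 in DOX 21 and at most 3 elsewhere, and Kit was highest in DMSO 20.

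The rest of the proton pump was abundant. Of 21 other subunits and accessory proteins, 18 had a mean of at least 10 TPM, and Atp6v1e2, a testis form of the E subunit, was at 0 in all libraries. None of the 20 with a count was called by DESeq2, beside 0.161% of all genes tested. Of their log2 fold changes 14 were positive and 6 negative, with a median of 0.16. The a2 subunit Atp6v0a2, found in the Golgi apparatus and endosomes, was at 19.5 ± 2.26 TPM in DMSO and 28.1 ± 5.09 TPM in DOX (SD, n = 4 each), and was the 1 gene of the 20 whose groups did not overlap, beside 2.71% of all genes. Its log2 fold change was 0.46 (SE 0.181), which did not pass over all genes tested (DESeq2 adjusted p = 0.622). The accessory proteins Atp6ap1 and Atp6ap2 also had an unadjusted p under 0.05, with overlapping groups and log2 fold changes of 0.51 and 0.36 (DESeq2 adjusted p = 0.774 and 0.879). This made 3 of 20 pump genes with such a p, beside 4.67% of all genes.

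All 15 other carbonic anhydrases listed were below Car2 in each of the 8 libraries. Among them, Car1, the red cell form, was at 0 in all libraries, Car8, a form without enzyme activity, was at 7.53 to 27.5 TPM and cytosolic Car13 at 10.6 to 19.1 TPM. The membrane-bound Car4 and Car12 ran from 0 to 16.7 and from 0 to 11.5 TPM. DESeq2 called 0 of the 10 that were given an adjusted p, where 0.161% of all genes were called, and 5 log2 fold changes were positive and 9 negative with a median of -0.45.

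Among 19 transporters of acid, bicarbonate, ammonia or chloride outside the 10 genes, the general exchanger Slc4a2 was at 30.2 to 58.5 TPM and the sodium-bicarbonate cotransporters Slc4a4 and Slc4a7 at 4.31 to 34.3 and 6.12 to 16.9 TPM. Slc4a2 was therefore above Slc4a1 and Slc4a9 in every library. Rhbg, the basolateral relative of Rhcg, reached at most 0.441 TPM. Slc4a10, a sodium-bicarbonate transporter of neurons, had 371, 35 and 315 counts in DOX 9, 21 and 12, none in DOX 19, 7 in DMSO 5 and none in the other DMSO libraries. Its log2 fold change of 6.34 (SE 2.21) was the largest of the list and did not pass over all genes tested (DESeq2 adjusted p = 0.402). DESeq2 called 0 of the 13 that were given an adjusted p (0.161% over all genes), and 3 log2 fold changes were positive and 15 negative with a median of -0.39.

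Genes whose pattern over the 8 libraries was most like that of Foxi1 and Car2 were sought among 15680 genes by Pearson's r of log2(normalized count + 1), as a description, since the points share library depth and composition. For Foxi1 they included Slc6a18 (r = 0.99), Nfxl1 (r = 0.98), Slc22a8 (r = 0.97) and Naa40 (r = 0.97). For Car2 they included Spns2 (r = 0.96), Plet1 (r = 0.95), Vtcn1 (r = 0.95) and Sprr2g (r = 0.93). The level of Slc6a18 ran from 0 to 3.81 TPM, so it was as sparse as Foxi1, whereas Spns2 ran from 25.8 to 130 TPM.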

How the data were processed

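Tubuloid RNA was sequenced in 8 libraries, 4 DOX and 4 DMSO, each placed in its group by its title. The authors made poly-A selected SMART-Seq v4 libraries and used STAR, featureCounts and DESeq2, by their methods and processing notes, on mm10 (GRCm38); versions and the settings of alignment and counting, strand included, are not given in the sources used here. For each RefSeq transcript the authors deposited a count of reads, without normalization. The deposited FPKM is the authors' scaling of that count by length and library total, and was not used in tests. The deposited TPM is the authors' rescaling to a fixed sum per library.

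Counts and TPM were summed by symbol. DOX was compared with DMSO by DESeq2 1.42.0 in R 4.3.3 on all genes with a count (Wald test, independent filtering at alpha 0.1, Cook's distance filter, Benjamini-Hochberg adjustment over all genes). The study's methods give the same alpha for their adjustment and do not name independent filtering. Beside DESeq2, edgeR 4.0.16 quasi-likelihood tests were run on genes that passed edgeR's own filter on low counts. Genes were called where the adjusted p was 0.05 or less and the fold change 1.5 or more. Levels of different genes were compared in TPM only. Isoforms share reads, so summed values of genes with several transcripts, such as Slc4a9, overstate their reads; the most counted transcript was an alternative.

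The genes and lists were chosen with earlier results of these data known. The genes named were the 10, the genes of the lists, the cell type markers, and the 5 genes most like Foxi1 and Car2; some of these genes are not reported here. Epb42 and Adgre1, on 2 marker lists, were not used here because no row carried the symbol. On simulated counts for 19634 genes, 200 changed 4-fold, 59% of the changed genes were recovered by DESeq2 (55 false calls) and 44% by edgeR (5 false calls). The changed genes were drawn only from genes above a minimum mean count, which most of the 10 genes did not reach. Their spread between libraries followed the fitted trend, not each gene's own. These rates therefore do not give the power for the sparse genes of the 10. Alternatives were edgeR, TMM size factors, a low count filter (at least 10 counts in at least 4 libraries), the Cook's distance filter off, independent filtering off, 1 transcript per gene, shares from counts not divided by length, and leaving out libraries.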

Additional observations from a re-analysis of the deposited data

Results flagged for a closer look

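Within a group of 4 libraries, a gene was singled out where the gap between its extreme library and the next, divided by the group's range, exceeded Dixon's 95% critical value. This occurred in 8 of 19 groups examined. The 1 in 20 that chance gives for normally distributed values does not apply, because in each of these 8 groups 2 or 3 of the 4 libraries were at 0, and 3 libraries at 0 give 1.0 by construction. The 8 are not independent, because 5 of them are the same library. DOX 12 was apart from the other DOX libraries for Foxi1 (0.918 of the range), Atp6v1b1 (0.978), Slc4a9 (0.919), Rhcg (0.986) and Atp6v1g3 (1.0). DMSO 5 was apart from the other DMSO libraries for Rhcg (0.914) and Atp6v1g3 (1.0). DOX 19 was apart for Slc4a1 (1.0), the gene counted in no other library. In these 8 groups the next library was at 0 to 0.152 TPM, against 0.0872 to 1.77 TPM in the library set apart.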

How the results depend on the processing

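No paired analysis was possible because the DOX and DMSO groups share no replicate number. In 15 alternatives 0 of the genes given an adjusted p, from 1 to 10 of the 10, were called. Over all genes, these alternatives called from 0 (edgeR) to 74 (without DMSO 15), so few calls were to be had for any 10 genes. Of 134 values for single genes 124 kept their direction and 10 changed it, all when 1 library was left out. An adjusted p came with 78 of the 134, none of them past the threshold. Without DMSO 5 the log2 fold changes were 0.79 (Atp6v1b1), 2.89 (Atp6v1g3, against a group at 0 and no bound), 0.79 (Atp6v0a4), 1.16 (Slc26a4) and 2.36 (Rhcg), and the median was 0.79. Without DMSO 3 they were 0.64 (Atp6v0d2) and 0.06 (Atp6v0a4), without DOX 21 0.10 (Atp6v0a4), and without DOX 19 0.20 (Atp6v0d2) and 0.07 (Atp6v0a4). Leaving out 1 library at a time, the log2 fold change ran from -5.28 to -1.4 (Foxi1), -6.49 to -1.37 (Slc4a9), -5.7 to 0.79 (Atp6v1b1), -0.55 to 0.64 (Atp6v0d2), -6.18 to 2.89 (Atp6v1g3), -0.99 to 0.79 (Atp6v0a4), -2.37 to 1.16 (Slc26a4) and -6.03 to 2.36 (Rhcg), and the median ran from -3.83, without DOX 12, to 0.79. The difference in share ran from -0.428 to 0.0554 (B subunit) and from -0.0684 to 0.00712 (G subunit) percentage points, both highest without DMSO 5, and from -4.56 to 0.528 (d subunit), highest without DMSO 3. For the a subunit it ran from -0.18 to 0.12, at 0.0736 without DMSO 3, 0.12 without DMSO 5, 0.0481 without DOX 21 and 0.0566 without DOX 19. The cause was not tested. The log2 fold change of Car2 stayed negative in all 15, from -1.47 to -0.54, with DESeq2 or edgeR adjusted p from 0.247 to 1.0. The 7 least expressed genes had SEs of 2.69 or more, and were counted in 1 to 4 of the 8 libraries.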
